A study of Drosophila melanogaster with 2 samples.

Results

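The Antennapedia complex of Drosophila melanogaster is a cluster of homeobox genes on chromosome arm 3R, and CTCF sites were mapped here across all 9 of its listed genes. The genes were chosen by name, and in order along the arm they are lab, pb, zen2, zen, bcd, Dfd, Scr, ftz and Antp, 9 of 17683 annotated genes. From 50 kb outside lab to 50 kb outside Antp, a span of 438 kb, the authors' list of peaks reproducible between replicates held 20 of its 5443 peaks. Of these, 16 lay from the end of lab to the start of Antp, and 4 lay in the flanks. The series was chromatin immunoprecipitation with sequencing from whole embryos of mixed sex, 0 to 16 h old. The embryos came from 1 transgenic line that stably expresses CTCF with GFP fused to its C terminus, and an antibody against GFP was used. Both samples belonged to this CTCF-GFP embryo group and were biological replicates 3 and 2, so the design held no second condition, and embryos lacking GFP were not analysed here. Whole embryos mix cell types and stages, so a weak site and a site used in few cells cannot be told apart.

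CTCF, a protein with many zinc fingers, occupies DNA at insulators and domain borders and can keep an enhancer from acting on the gene across the border. The complex holds the Hox genes of the head and anterior thorax, lab, pb, Dfd, Scr and Antp, whose order on the chromosome follows the order of the segments they specify. It also holds 4 homeobox genes that are no longer Hox genes in function. These are bcd, the maternal anterior determinant, zen and zen2, relatives of Hox class 3 that include the regulator of the amnioserosa, and ftz, a pair-rule gene. Long regulatory regions lie between and inside these genes, and elements that block enhancers have been described on either side of ftz.

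Signal is the deposited strength of a peak, whose scale the file headers do not state, and a summit is the position of highest signal in a peak. The sites were very unequal. The weakest had a signal of 214 and the strongest 30499, the median was 886, and the leading 3 held 77.1% of the summed signal. The leading site lay in front of bcd. The second lay in an intron of Antp with 25536, and the third lay between lab and pb with 12761. The next site had a signal of 5868. Both replicates gave the same order for the 5 strongest.

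**Figure D1:**
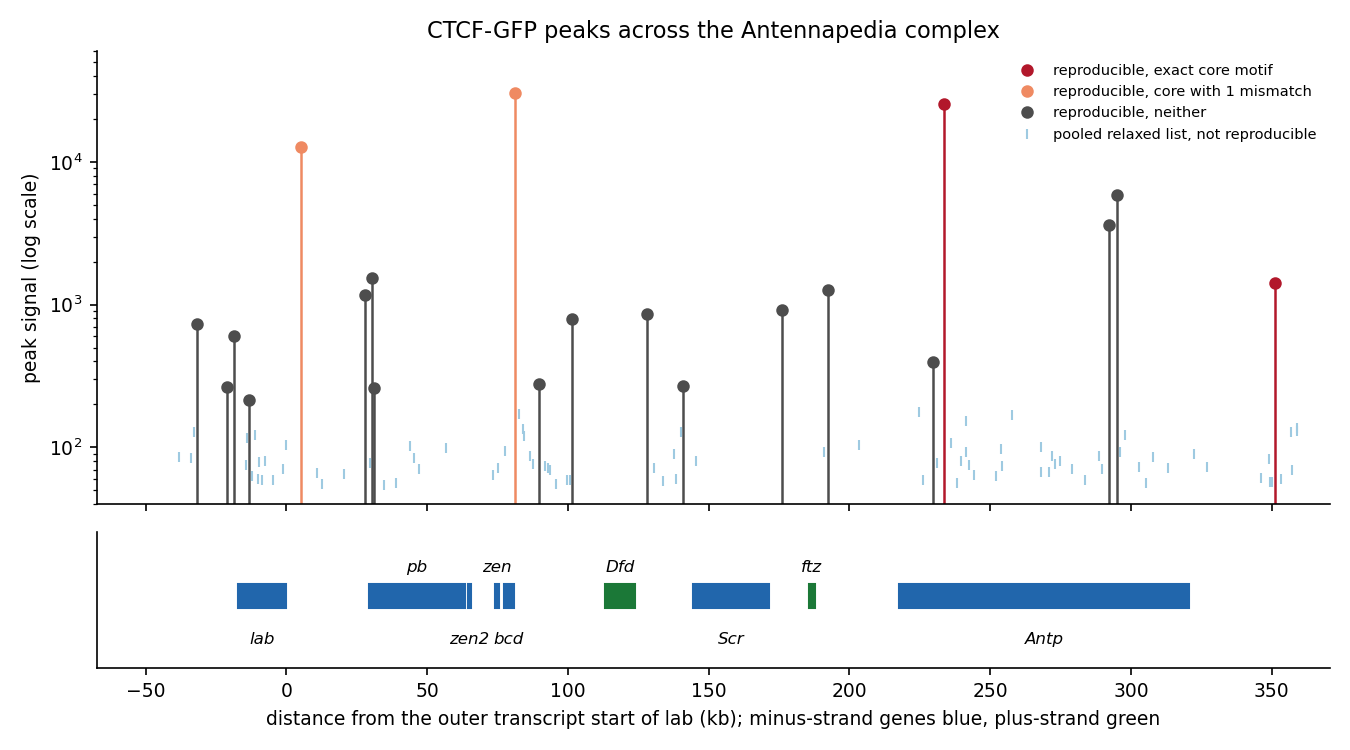
Signal of each reproducible peak (stems, log scale) along the complex, as distance from the outer transcript start of lab in kb, with the gene bodies below. Tall stems stand in front of bcd (30499), in Antp (25536) and between lab and pb (12761), while light ticks mark the 87 pooled relaxed peaks that overlap no reproducible one.

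The DNA under the 5 strongest sites is given, and with it that of the weaker site distal to Antp, of signal 1427, as the only other one with a complete CTCF core. Its 4 forms AGAGGGCGC, AGATGGCGC, AGGGGGCGC and AGGTGGCGC were sought on either strand, up to 50 bp from the summit. All sequences are the plus strand of the RefSeq assembly of the dm6 build, 5′ to 3′, and capitals mark exact copies of the core at the first pair of sites, copies with 1 mismatch at the next pair and a short core at the fifth, while the last has none of these.
Antp intron, chr3R:6912268-6912424: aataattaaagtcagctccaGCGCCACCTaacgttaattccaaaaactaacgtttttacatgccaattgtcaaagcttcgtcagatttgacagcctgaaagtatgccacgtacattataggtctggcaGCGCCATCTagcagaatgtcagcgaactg
distal to Antp, chr3R:7029581-7029681: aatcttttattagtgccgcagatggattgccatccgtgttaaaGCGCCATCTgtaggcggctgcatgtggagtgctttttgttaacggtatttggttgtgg
front of bcd, chr3R:6759652-6759753: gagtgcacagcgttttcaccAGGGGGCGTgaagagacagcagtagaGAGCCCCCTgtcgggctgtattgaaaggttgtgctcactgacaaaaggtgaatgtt
front of Edg84A, chr3R:6683813-6683913: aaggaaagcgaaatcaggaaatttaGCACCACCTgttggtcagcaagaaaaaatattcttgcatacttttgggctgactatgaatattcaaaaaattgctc
Antp between its outermost and middle starts, weaker site, chr3R:6970700-6970800: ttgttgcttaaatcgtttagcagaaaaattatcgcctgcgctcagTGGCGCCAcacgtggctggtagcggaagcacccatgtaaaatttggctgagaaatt
Antp between its outermost and middle starts, stronger site, chr3R:6973450-6973550: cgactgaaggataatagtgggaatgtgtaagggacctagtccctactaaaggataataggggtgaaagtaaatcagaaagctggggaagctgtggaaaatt

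At the Antp intron site 2 exact copies lay on the minus strand, at 6912288 to 6912296 and 6912396 to 6912404. The summit, at 6912356, fell between them, 64 bp from the centre of one and 44 bp from the centre of the other. The site distal to Antp had 1 exact copy on the minus strand, 3 bp from its summit. In front of bcd no exact copy was present, but 2 copies with 1 mismatch each pointed towards each other. Counted from 1 at the 5′ end of the core, the plus-strand copy carried C9T and the minus-strand copy carried G8T, and the centre of the minus-strand copy lay 1 bp from the summit. The copy in front of Edg84A, on the minus strand, carried C7T. At the weaker site between the outermost and middle Antp starts the letters TGGCGCCA read the same on both strands, so the last 6 letters of the core, TGGCGC, occurred in either direction with a centre at most 3 bp from the summit.

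By count, 2 of the 20 peaks carried an exact core within 50 bp of the summit, against 12.7% of all 5443 peaks. With 1 mismatch allowed 4 of 20 carried it, against 24.8% of all peaks. The last 6 letters alone, TGGCGC or GGGCGC, were in 5 of 20, against 22.3% of all; these were both exact sites, the weaker Antp site between its outermost and middle starts, a site in lab and a site in lncRNA:CR42721. These shares were close to the background, and no test was run on them. The exact core sat at signals of 25536 and 1427, and the strongest site of all had none. The Antp site of signal 5868 had neither form of the core in the window. Among letters bound by other insulator and Polycomb-related factors, GAGAG occurred at 3 of the 20 summits, against 11.0% over the rest of the arms, and GCCAT at 6, against 22.6%. GCCAT lies within the reverse complement of the core form AGATGGCGC, so both exact sites count among those 6. At the sites in lab and in lncRNA:CR42721, also among them, GCCAT shared letters with the short core.

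The bcd gene was the one member whose transcript start had a summit no more than 1 kb away, 1 of 9 against 24.4% of all genes. bcd (FBgn0000166, 3R from 6755842 to 6759466, minus strand) encodes the homeodomain protein whose gradient patterns the anterior embryo. Its peak, chr3R:6759214-6760241, was 1028 bp wide and had its summit 237 bp upstream of the only annotated start. The signal was 16182 in replicate 3 and 14363 in replicate 2, ranks 51 and 53 in their own lists. It ranked 52 among all reproducible peaks, next to a peak of 30544 that was 5397 bp from Jhbp1 with an exact core, and one of 30420 that was 224 bp from galectin with none. The next protein-coding gene on the other side, Ama, which encodes a cell adhesion protein of the immunoglobulin family, had its nearest start 2890 bp from this summit.

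Upstream of bcd, towards Dfd, the signal was far lower. A site of 278 lay in an intron of lncRNA:CR42721, with 159 in replicate 3 and 121 in replicate 2. A site of 789 lay between that gene and Dfd, 11598 bp in front of the Dfd start, with 404 in replicate 3 and 380 in replicate 2. These were the only other reproducible sites in the 32.4 kb between bcd and Dfd, which also holds the microRNA gene mir-993.

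On the lab side of the bcd site no reproducible summit occurred over 49889 bp, up to the 2 sites at the 3′ end of pb. That stretch held most of pb and all of zen2, zen and bcd itself. Spacings of 56131 bp or more, longer than this stretch, made up 10.2% of those between reproducible summits on the arms. The share at least as long as this stretch itself is therefore no smaller. The zen start (FBgn0004053), at 5509 bp, and the zen2 start (FBgn0004054), at 15567 bp, both had the bcd site as their nearest summit. At zen, which specifies the dorsal extraembryonic tissue, the relaxed list showed 1 summit 379 bp from the start with a signal of 71.6. It was matched in replicate 2 at 44.2 and not in replicate 3. By its label the pooled relaxed list holds background as well as peaks, at 22.4 per 100 kb over all arms. The share of all genes with such a summit within 1 kb of a start is not given. Relaxed summits near the members are therefore listed as description only.

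pb (FBgn0051481, 3R from 6707800 to 6742063, minus strand) sets the identity of the mouthparts, and its sites were all at its 3′ end. The stronger one, 1549, lay in an intron with 852 in replicate 3 and 716 in replicate 2. The weaker one, 262, lay 764 bp away in coding sequence, with 142 in replicate 3 and 129 in replicate 2. Another site of 1164, with 563 in replicate 3 and 611 in replicate 2, lay just beyond the gene towards lab. The single start of pb, at the other end of the gene, was 17640 bp from the nearest summit, that of bcd.

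lab (FBgn0002522, 3R from 6661427 to 6678590, minus strand) is the most anterior Hox gene of the complex. Its body held 1 site, in an intron, of 214, the weakest of the 20, with 113 in replicate 3 and 103 in replicate 2. The summit lay 2041 bp from an inner start of the gene. Below the reproducibility threshold, the pooled relaxed list had a summit of 104 at 80 bp from the outer start, matched by 51.3 in replicate 3 and 64.6 in replicate 2. It had another of 75.7 at 805 bp from the inner start, matched by 50.6 in replicate 3 and 32.0 in replicate 2.

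The strong site between lab and pb lay 5273 bp upstream of the outer lab start, and 582 bp upstream of Edg84A, a cuticle protein gene. Its signal was 6707 in replicate 3 and 6090 in replicate 2. Edg84A begins a run of cuticle protein genes, the Ccp84A genes, that fills much of the interval from lab to pb. None of the other 7, Ccp84Aa to Ccp84Ag, had a summit within 1 kb of a start, and the sites of 12761 and 1164 stood on either side of the run.

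Dfd and Scr, which specify the jaw and labial segments, had no reproducible site inside the gene. Dfd (FBgn0000439, 3R from 6791836 to 6802428, plus strand) had its nearest summit 11598 bp upstream of its start. Behind it, between Dfd and Scr, lay a site of 861, with 404 in replicate 3 and 440 in replicate 2, that was 2714 bp from the microRNA gene mir-10. A further site of 269, with 155 in replicate 3 and 123 in replicate 2, lay 498 bp from tRNA:Lys-TTT-2-1. That start belongs to a run of near-identical tRNA and 7SL RNA copies. No source used here says how reads matching several copies were treated, and the value is uncertain for that reason.

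Scr (FBgn0003339, 3R from 6823120 to 6849981, minus strand) and ftz (FBgn0001077, 3R from 6864324 to 6866244, plus strand) had a site on each side but none inside. Between Scr and ftz a site of 910 lay 4559 bp upstream of the outer Scr start and 9784 bp upstream of the ftz start. It had 441 in replicate 3 and 474 in replicate 2. Between ftz and Antp a site of 1275 lay 6658 bp downstream of the ftz start, with 626 in replicate 3 and 643 in replicate 2. These sites bracketed ftz at a distance of 16442 bp from each other. The positions of the enhancer-blocking elements described there are in none of the files, so the sites were not matched to them. Both sites, and the pair between Dfd and Scr, lacked the core with up to 1 mismatch.

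Antp (FBgn0260642, 3R from 6896253 to 6999228, minus strand) specifies the second thoracic segment, and it held 4 sites with 39.7% of the summed signal of the span. The intron site of 25536, with 13583 in replicate 3 and 12032 in replicate 2, ranked 77 among all reproducible peaks. Its peak was 1221 bp wide, the widest of the 20, and lay 20484 bp downstream of the start at 6932840. Close by, 4058 bp nearer the 3′ end, a site of 393 lay in the annotated 3′ UTR of an Antp transcript, with 179 in replicate 3 and 217 in replicate 2. CG46458, a protein-coding gene annotated on the same strand, overlaps both of these sites, so they cannot be assigned to Antp alone.

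The other sites inside Antp lay between its outermost start at 6999228 and its middle start at 6958370, in an intron. The stronger one, 5868, had 3187 in replicate 3 and 2704 in replicate 2. It lay 25728 bp downstream of the outermost start. The weaker one, 3605, had 1909 in replicate 3 and 1698 in replicate 2 and lay 12380 bp upstream of the middle start. From the Antp intron site to this one no reproducible summit occurred over 58394 bp. This was the longest spacing of the complex, and 9.42% of spacings between reproducible summits on the arms were at least that long. It was picked as the longest, so this share of single spacings does not show it to be unusual. None of the 3 Antp starts had a reproducible summit within 1 kb. The pooled relaxed list had 3 such summits, with signals of 97.9, 73.9 and 70.4. The first and second lay 324 and 68 bp from the start at 6932840, and the third lay 789 bp from the middle start. No such summit lay at the outermost start. The first was matched in both replicates, the others in 1 each. These too are description only, with no share over all genes beside them.

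In the flanks, 3 sites lay on the side of lab and 1 on the side of Antp. Those beyond lab were at promoters. The site at Taf1, a subunit of the general factor TFIID, had 733, with 388 in replicate 3 and 369 in replicate 2. The site at agt, which encodes a DNA repair alkyltransferase, had 608, with 354 in replicate 3 and 259 in replicate 2. The site at the start of CG1307, 4 bp inside that gene and with the twr start also within 1 kb, had 265, with 149 in replicate 3 and 115 in replicate 2. The site beyond Antp, of 1427, had 739 in replicate 3 and 696 in replicate 2 and lay 30403 bp upstream of the outermost Antp start. The first peaks outside the span had signals of 400 on the side of lab, 6092 bp past the edge, and 531 on the side of Antp, 18085 bp past it. The outermost inside were those of Taf1 and of 1427.

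Inside the gene bodies, 3 of 9 members had a reproducible summit, lab, pb and Antp, against 11.6% of all genes. The members differ in length by a wide margin, since zen2 spans 1.00 kb and Antp 103 kb, and longer genes offer more room. Among genes of 10 kb or longer the share was 46.7%, and of the 5 members that long, the same 3 had a site. Read against that share, the count is not a result about the complex.

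Relaxed peaks, those the authors passed to the reproducibility step, showed an uneven background along the complex. The list pooled over replicates held 109 of them in the span, 24.9 per 100 kb, against 22.4 per 100 kb over all arms. The bodies of Dfd (10.6 kb), ftz (1.92 kb) and zen2 held none in the pooled list or in either replicate's list. Scr held 1 in 26.9 kb, present in replicate 3 and absent in replicate 2. Antp held 34, with 38 in replicate 3 and 35 in replicate 2, and lab held 11, with 8 in replicate 3 and 11 in replicate 2. Of genes of 10 kb or longer, 18.4% had no pooled relaxed summit in the body, among them Dfd. The longest span with no pooled relaxed summit ran for 30.4 kb from inside Scr to the site between Scr and ftz. It was 30.4 kb in replicate 3, and in replicate 2 the longest was 35.0 kb, with the same end. Of the spacings between pooled relaxed summits on all arms, 1.79% were at least as long as 30.4 kb. The 30.4 kb span was picked as the longest among 109 summits, so this share of single spacings does not show it to be unusual.

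**Figure D2:**
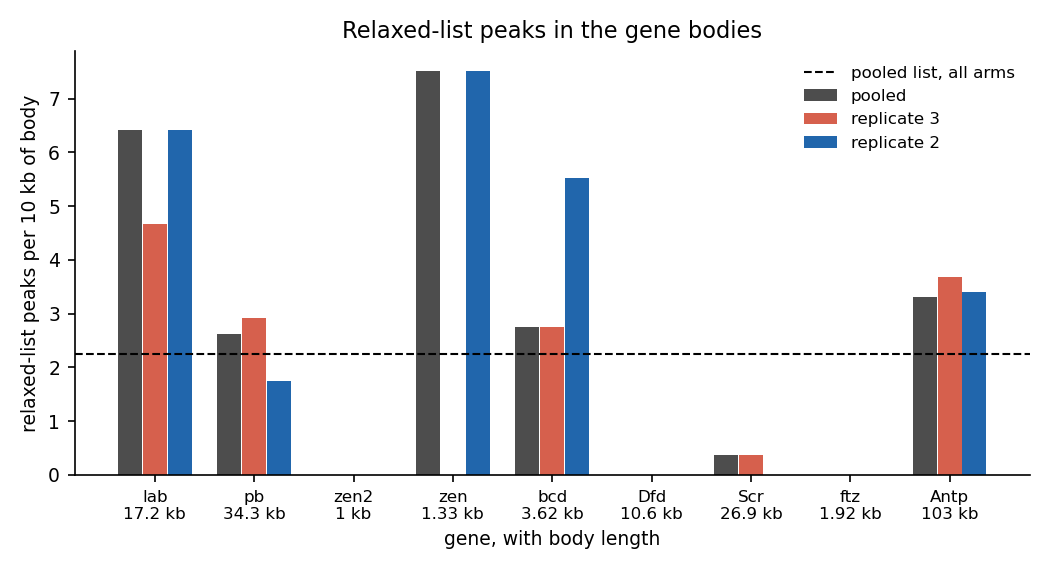
Relaxed-list peaks per 10 kb of gene body in the pooled list and in each replicate, with the length of each gene, and the pooled density over all arms as a dashed line. Dfd, ftz and zen2 stood at 0 in all lists and Scr had 1 peak, while the tall bars of zen and bcd rest on 1 or 2 peaks in short genes.

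Every one of the 20 sites was found within 100 bp in both replicates, against 96.1% of all reproducible peaks. Agreement between the same libraries decided which peaks entered the list, and the share is therefore not independent of that choice. By deposited value, replicate 3 was higher at 15 sites and replicate 2 at 5, with no scaling between the lists. Scale and depth are unknown, so a log2 ratio of 0 need not mean equal binding. The log2 ratio of replicate 3 to replicate 2 lay between -0.27 and 0.45, with a median of 0.14 in the complex and 0.10 over the rest of the arms. Its SD was 0.19 across the 20 sites and 0.42 across the rest. Across these sites the log2 signals had a Pearson r of 0.996 and a Spearman rho of 0.988, as a description over 20 peaks that share their libraries. Replicate 2 was the higher one at the sites between Scr and ftz, between ftz and Antp, near mir-10, next to pb and at the site of 393 that Antp and CG46458 share. These 5 differences, -0.27 for the farthest, at that last site, were smaller in size than the SD over the rest of the arms. Peaks on the rest of the arms were weaker, with a median signal of 344 against 886, and SDs were not compared at matched strength.

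**Figure D3:**
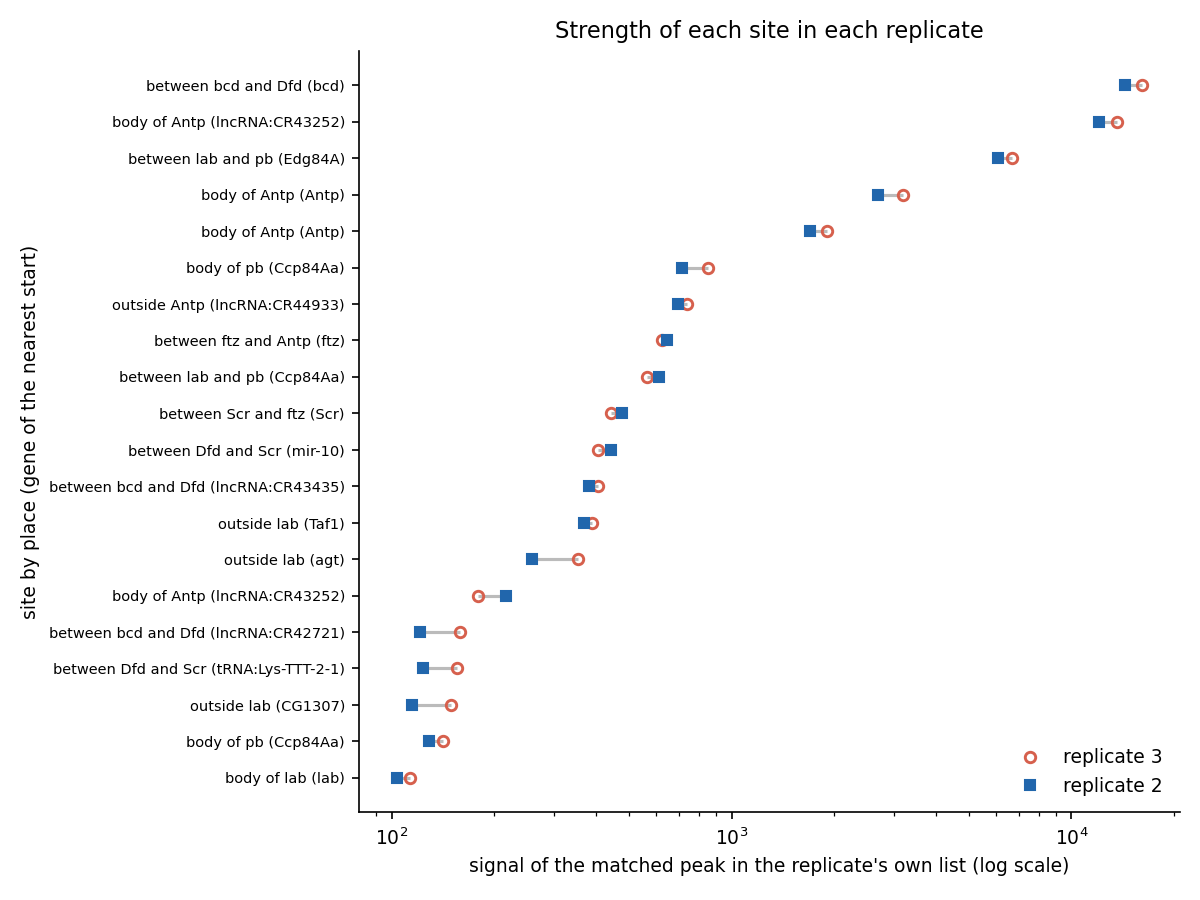
Signal of each of the 20 sites in replicate 3 (open circles) and replicate 2 (squares) on a log scale, with the strongest site on top. The strongest site, in front of bcd, had 16182 and 14363, and the replicates were farthest apart in ratio at agt, 354 and 259.

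Set beside the rest of the genome, the complex had 4.57 reproducible peaks per 100 kb (95% exact Poisson interval 2.79 to 7.06, counting error only). The rest of 3R had 3.90 (3.68 to 4.12), which lies within that interval. The median signal was 886 in the complex and 344 over the rest of the arms, and the lower and upper quartiles were 365 and 2063 in the complex, against 245 and 718 elsewhere. Of the 20 sites, 4 were among the strongest 10% of all peaks. Promoters held 6 of the 20 summits, against 62.7% of all reproducible summits. The remainder were 6 in introns, 6 intergenic, 1 in coding sequence and 1 in 3′ UTR. Of the 6 promoter sites, 1 was at a member, bcd, and the others were at Edg84A, tRNA:Lys-TTT-2-1, Taf1, agt and CG1307 with twr. These differences between the complex and other regions were not tested, and peaks near each other are not independent.

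**Figure D4:**
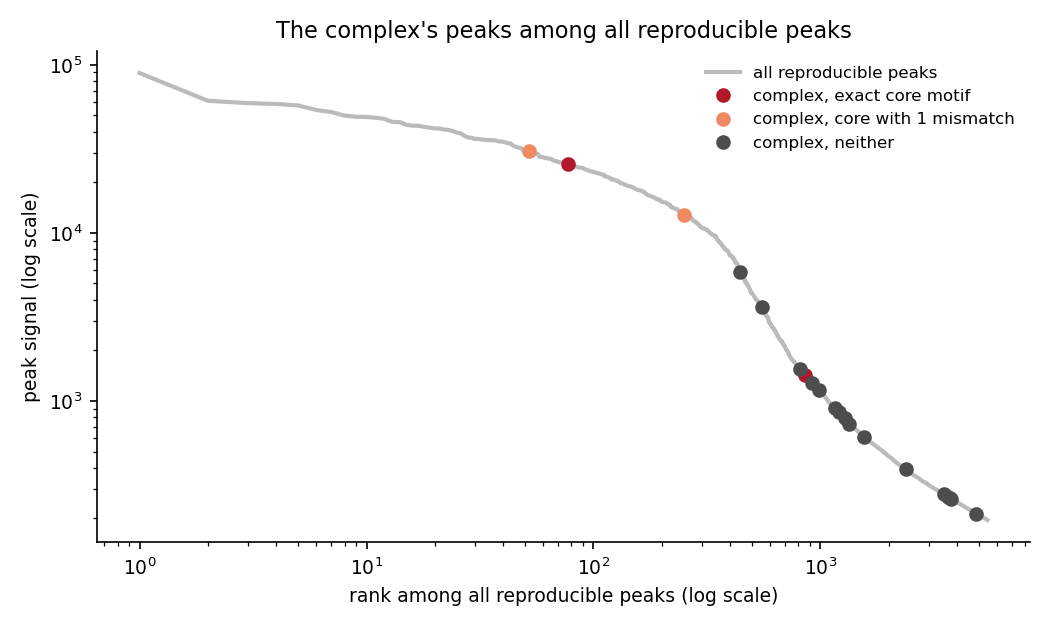
Signal against rank for all 5443 reproducible peaks (grey line) and the 20 peaks of the complex (points, coloured by core motif), both axes on a log scale. The 3 strongest of the complex stood at ranks 52, 77 and 251, and the point at rank 4872 is the site in lab.

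The exact core was present 13 times in the span. A reproducible summit lay within 50 bp of 2 copies, against 25.3% of the 2929 copies on the arms. Another copy, the one 64 bp from the Antp summit, lay inside that peak. By peak interval, 3 of the 13 copies lay in a reproducible peak, against 825 of the 2916 copies on the rest of the arms. On either measure the count was close to the background, and no test was run. Copies without a reproducible peak lay in pb (2), Dfd (1), ftz (1), Antp (3), between lab and pb (1), between Scr and ftz (1) and distal to Antp (1). Of all 13, 6 lay inside a peak interval of the pooled relaxed list, compared with 38.7% of copies on the rest of the arms. The copies in Dfd, AGGTGGCGC, and in ftz, AGAGGGCGC, lay in no relaxed peak.

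The bithorax complex, which holds the Hox genes of the posterior body, was described in the same way. Against the 4.57 peaks per 100 kb of the Antennapedia complex, it had 30 peaks with its own 50 kb flanks, 7.22 per 100 kb (95% exact Poisson interval 4.87 to 10.3), and the intervals overlap. An exact core was at 2 of the 20 summits of the Antennapedia complex, close to the 12.7% of all reproducible peaks. In the bithorax complex it was at 9 of the 30, a difference that was not tested. Abd-B, at 671 bp with a signal of 8670, was the one of its 3 Hox genes whose start had a summit that near.

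Other genes of the same regulatory system were taken from lists of partners and targets. Of 6 Hox cofactors and partners, 1 had a summit within 1 kb of a start, tio with a signal of 201, while exd and hth, which encode the homeodomain partners of Hox proteins, had none. Of 16 targets and partners of bcd and zen, 2 had one, brk with 296 and cact with 320. hb, the best known target of bcd, had its nearest summit 24031 bp away with a signal of 215. btd, a head gap gene, had a site of 26659 at 6262 bp. Among the 36 other genes annotated between lab and Antp, 2 had a summit within 1 kb of a start, Edg84A and tRNA:Lys-TTT-2-1. Each of these shares was at or below the 24.4% of all genes, and none was tested.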

How the data were processed

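Peaks came from chromatin immunoprecipitation and sequencing of CTCF-GFP embryos, 2 biological replicates in 1 group, so no test across samples was possible. Chromatin was sonicated, per the labels. Per the file headers, the authors made on dm6 a relaxed peak list for each replicate and for both pooled, from alignments and a control, and an optimal list thresholded by the irreproducible discovery rate. Each deposited peak has a signal value with no stated scale, which was used inside each list for ranks, medians and shares. Log2 ratios between the replicates' lists used it too, as a description, without scaling for depth. Aligner and peak caller: not given in the sources used here. Read depth per sample is unknown. Each relaxed list holds 30000 peaks whatever the depth. The dm3 lists were not used here.

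Genes came from Ensembl release 115 (build BDGP 6.54, FlyBase genes in dm6 coordinates) and sequence from the RefSeq assembly of dm6. Coordinates are 1-based. Density intervals are exact Poisson ones. Summits were assigned to gene bodies or the intervals between members, and to features in the order promoter (within 1 kb of a start), 5′ UTR, coding sequence, 3′ UTR, any exon left, intron and intergenic space. Peaks were matched between lists by summits within 100 bp. Members and gene lists were chosen with earlier results of these data known. One name of the partner lists, nos, matched more than 1 gene and was left out. Named were all members, every peak of the span, and list genes whose start had a summit no farther than 1 kb; exd, hth, hb, btd, Ama, mir-993, mir-10, CG46458, lncRNA:CR42721 and the Ccp84A genes, neighbours or overlaps of the sites among them, were named after their values were seen. The motif and matching code was tested on simulated data. Python 3.11.15, numpy 2.4.6, pandas 2.3.3, scipy 1.17.1 and matplotlib 3.10.9 were used. Alternatives were other thresholds, flanks, distances, motif windows and each replicate alone.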

Additional observations from a re-analysis of the deposited data

How the results depend on the processing

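The 20 peaks were 20 in the strongest 5443 peaks of replicate 3 alone and of replicate 2 alone, and each of the 20 was found again there within 100 bp. The same libraries decided which peaks entered the list, so this and the other counts by replicate below are not independent checks. The count was 20 with overlapping peaks merged, 15 among reproducible peaks above the median signal and 109 in the pooled relaxed list. With flanks of 0, 25 and 100 kb the count was 16, 19 and 27. All 20 were matched in both replicates by overlap or within 200 bp, and 18 within 50 bp. An exact core was at 2 summits, at 1 with a window of 25 bp, at 2 with 100 bp or the whole peak and at 4 with 1 mismatch. It was at 5 with the short core TGGCGC or GGGCGC, a form chosen after seeing the data. Members with a summit near a start were 1 (bcd) at 500, 1000 and 2000 bp and with protein-coding transcripts only, 0 at 200 bp, and 3 (lab, bcd and Scr) at 5000 bp. Members with a summit in the body were 3 in either replicate alone, 2 above the median signal, where lab was lost, and 6 in the pooled relaxed list. Shares over all genes at these other distances and lists are not given, so these member counts are description only. Density was 4.57 per 100 kb with either replicate left out or peaks merged and 3.43 above the median signal. That median was taken over all reproducible peaks, so the cut removes peaks elsewhere as well. The 3.43 is therefore not comparable with the uncut 3.90 of the rest of 3R. No paired analysis was possible because both samples belong to 1 group. Placing the dm3 lists was not run. Weak peaks, unknown depth and the use of tagged embryos alone limit what a missing peak can show.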

Other observations

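A short word, AAGCAG, stood out in the windows around the summits and was counted after the sequences had been seen, so its count is a description of how it was found. It occurred at least 2 times, on either strand, within 50 bp of the summit at 4 of the 20 sites, against 1.12% of the 5423 other reproducible peaks. With at least 1 copy counted, the contrast was smaller, 4 of the 20 sites against 7.10% of the other peaks. In windows 500 bp to the left and right of those other summits the share with at least 2 copies was 0.277% and 0.406%. The share with at least 1 was 6.55% and 6.75%. None of the 20 sites had 2 copies in the windows to the left or right, and 1 had a single copy to the right. The 4 sites had signals of 278, 789, 269 and 393, and none carried the core with up to 1 mismatch. Over the other peaks, the 61 with at least 2 copies had a median signal of 492 and the 5362 with fewer a median of 344. The windows outside transcripts' UTRs are given, dm6 plus strand from RefSeq, with the word or its reverse complement in capitals.
intron of lncRNA:CR42721, chr3R:6768386-6768486: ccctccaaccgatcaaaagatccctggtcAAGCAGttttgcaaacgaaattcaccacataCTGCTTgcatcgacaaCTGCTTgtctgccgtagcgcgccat
between lncRNA:CR42721 and Dfd, chr3R:6780188-6780288: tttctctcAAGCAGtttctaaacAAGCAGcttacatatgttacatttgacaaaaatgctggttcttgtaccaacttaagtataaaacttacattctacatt
next to tRNA:Lys-TTT-2-1, chr3R:6819346-6819446: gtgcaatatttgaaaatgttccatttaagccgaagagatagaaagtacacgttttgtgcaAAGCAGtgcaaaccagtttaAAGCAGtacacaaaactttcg

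These windows held 3, 2 and 2 copies in the order printed, and the site of 393, which both Antp and CG46458 overlap, held 4. No test was run, since the word was picked from these sites.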
